A study of Mus musculus with 8 samples.

Results

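The tricarboxylic acid (TCA) cycle oxidises acetyl groups in mitochondria, and the 29 genes described here encode the carrier that brings pyruvate into mitochondria, the pyruvate dehydrogenase complex, enzymes of the cycle and enzymes that refill or drain it. They were taken by symbol from the deposited count table, which lists 56980 gene IDs, and all 29 were present. All 29 also passed the filter on low counts, which left 18905 genes for testing. The RNA came from cultured mouse oligodendrocyte progenitors, cells that divide and can become the myelin-forming oligodendrocytes. They were wild type, of strain C57BL/6, and isolated from the cortex of pups of either sex at postnatal day 6 to 8. Microglia and endothelial cells were removed on lectin-coated dishes, PDGFRα+ cells were captured with an antibody, and the cultures were grown in 25 mM glucose with PDGF-AA at 10 ng/mL and bFGF at 20 ng/mL. The bFGF was removed before the experiment and the PDGF-AA was kept in both groups. High glucose (HG) cultures stayed at 25 mM, whereas medium exchanges lowered low glucose (LG) cultures in steps, with 12.5 mM from day 1, 5 mM from day 2 and finally 2.5 mM from day 3. Cells of both groups were collected on day 5. Each group holds 4 libraries, numbered 1 to 4. In the descriptions, numbers 1 and 2 share the code 23-1105-C in both groups, number 3 carries 24-0114 and number 4 carries 24-0208. The labels speak of independent preparations and do not say what these codes stand for, so n = 4 counts libraries. The p-values measure the spread between these libraries or, in fits that compare libraries of the same number, the spread of those differences.

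Pyruvate from glycolysis crosses the inner mitochondrial membrane through a carrier made of MPC1 and MPC2, and is then either oxidised to acetyl-CoA by the pyruvate dehydrogenase complex or carboxylated to oxaloacetate by pyruvate carboxylase. Acetyl-CoA joins oxaloacetate to form citrate, and the cycle returns to oxaloacetate through oxoglutarate, succinate, fumarate and malate. Glutamate enters the cycle as oxoglutarate, and malic enzymes take malate back to pyruvate, reactions called anaplerosis where they refill the cycle and cataplerosis where they drain it. In the oligodendrocyte lineage these intermediates also supply carbon for lipid synthesis.

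The total count per library ran from 50864130 to 65733928, which exceeds the read depth stated in the labels. The cells carried the markers of their labelled type, with the progenitor marker Pdgfra at a mean of 1766 CPM (counts scaled to the size of the library), and 10 progenitor markers summed to between 8844 and 12764 CPM. The summed level of 10 microglial markers was between 1.08 and 2.53 CPM, with Cx3cr1, Itgam and C1qc at 0, and that of 8 endothelial markers was between 5.04 and 7.64 CPM, with Cdh5 and Cldn5 at 0. Most of this endothelial sum came from Vwf (mean 3.57 CPM) and Kdr (mean 2.30 CPM), the only 2 of the 8 that passed the filter on low counts. The endothelial sum was higher in LG in 4 of 4 numbers, and its part in the differences given here was not tested. The 10 neuronal markers summed to between 1072 and 1354 CPM and the 8 markers of myelinating oligodendrocytes to between 493 and 758 CPM. The 12 astrocyte markers summed to between 2000 and 2142 CPM in the 4 libraries with code 23-1105-C and to between 794 and 902 CPM in the 4 others.

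Levels between genes were compared per kilobase of exon, as TPM (transcript level scaled to the sum over all genes), and these are levels and not differences. The cytosolic malate dehydrogenase gene Mdh1 had the highest level, at 425 ± 19.1 TPM (SD, n = 8), followed by the cytosolic isocitrate dehydrogenase gene Idh1 at 311 ± 30.2 TPM, the glutamate dehydrogenase gene Glud1 at 279 ± 104 TPM and the mitochondrial malate dehydrogenase gene Mdh2 at 260 ± 16.1 TPM. The lowest levels were those of Dlat, the acetyltransferase of the pyruvate dehydrogenase complex, at 37.3 ± 2.19 TPM, Mpc2 at 16.8 ± 1.03 TPM, the mitochondrial malic enzyme gene Me2 at 16.5 ± 0.582 TPM and Me3, another mitochondrial malic enzyme gene, at 1.23 ± 0.169 TPM. The range over the 29 genes was 346-fold, and 25.7-fold without Me3, whose exon union of 14624 bases is the longest among the members and enters the level as a divisor. In the order of levels, 24 of the 28 pairs of neighbours overlapped in their library ranges. The 4 steps without overlap were those from Mdh1 to Idh1, from the citrate synthase gene Cs (213 ± 11.4 TPM) to Idh3g (128 ± 10.4 TPM), from Dlat to Mpc2 and from Me2 to Me3. The SD of Glud1 was the largest among these levels, and its libraries fell into a high and a low set that match the codes.

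**Figure D1:**
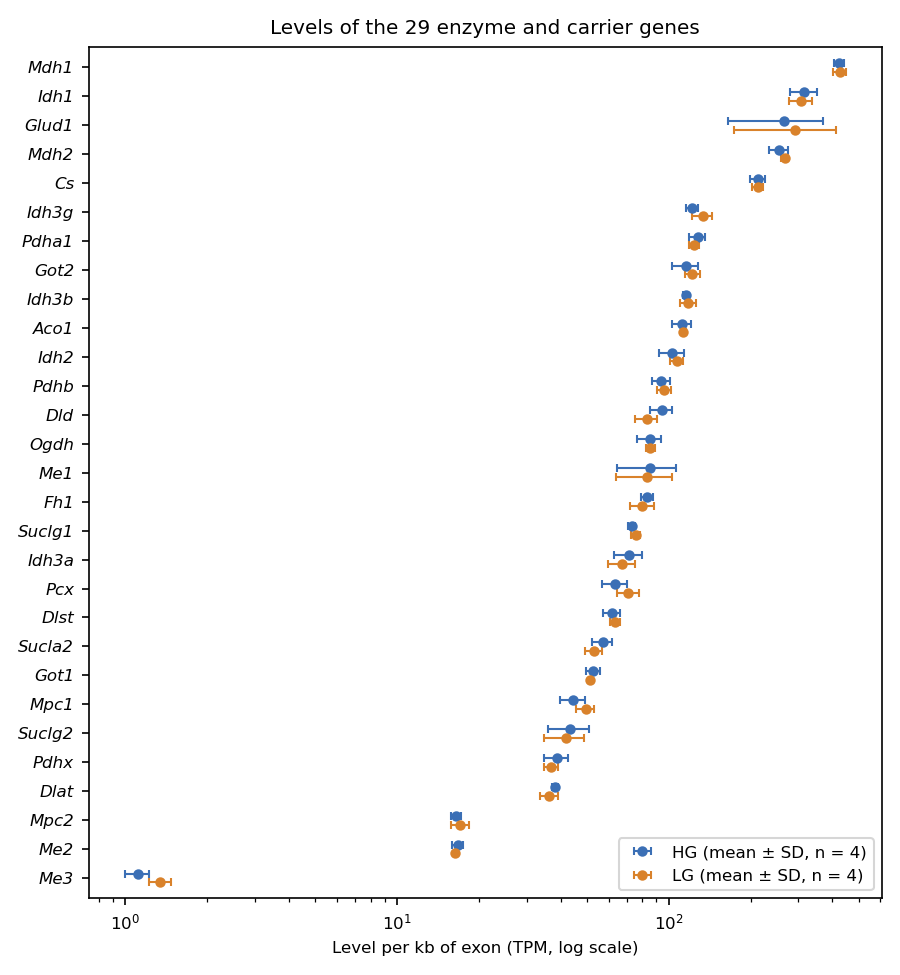
Level of each of the 29 genes in TPM on a log axis, ordered by the mean over all libraries, with points for the HG and LG means and bars for the SD over 4 libraries. The order runs from Mdh1 at 425 TPM to Me3 at 1.23 TPM, and the bars of Glud1 are the widest.

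Lowering glucose gave no member a change that passed the test. LG was compared with HG by edgeR's quasi-likelihood test with Benjamini-Hochberg adjustment over all tested genes at a threshold of 0.05. Without a block, 0 of 29 members and 0 of 18905 genes passed (0%), while 2 members and 745 genes (3.94%) had an unadjusted p under 0.05. With the replicate number as a block, which compares each LG library with the HG library of its number, 0 members and 79 genes (0.418%) passed. DESeq2 called 4 genes (0.0212%) without the block and 474 (2.51%) with it, and 0 members in either case. The smallest adjusted p of a member was 0.224 with the block in edgeR. In that fit an unadjusted p under 0.05 was found for 5 of the 29 members, against 13.4% of genes. Such a p with a higher value in LG was found for 4 of the 29, against 6.02% of all genes. When a trend on GC content and length was removed from each library as well, 0 members and 129 genes (0.682%) passed.

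The fitted differences were small. Of the 29 members, 20 had a log2 fold change above 0, against 51.4% of all genes without the block and 50.4% with it. Their median was 0.05 with the block, where the median over all genes was 0.002, and they ranged in that fit from -0.14 for Dld to 0.31 for Me3. With the GC and length trend removed as well, 25 members were positive, against 55.7% of genes. The 95% intervals of the 29 differences in the fit with the block all lay between -0.29 and 0.54 on the log2 scale. Without the block the widest interval was that of Glud1, from -0.63 to 1.00. The LG and HG libraries overlapped for each of the 29 members, while 2.89% of genes had groups that did not overlap.

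The 4 same-numbered differences had 1 sign in 6 of 29 members, against 21.7% of genes. Mpc1, Mpc2, Pdhb, Glud1 and Me3 were higher in LG in 4 of 4 numbers, and Dld was lower in 4 of 4. The share of members with differences of 1 sign was thus close to that of all genes. Higher in 4 of 4 were 5 of the 29 members and 10.8% of all genes, a larger share of members that was not tested.

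Mpc1 and Mpc2 encode the partners of the mitochondrial pyruvate carrier. Mpc1 (ENSMUSG00000023861) lies on the plus strand at chr17:8282904-8297661 in GRCm38, the assembly also called mm10. Much of its coding sequence also occurs in the processed pseudogene Mpc1-ps on the minus strand at chr12:110858565-110858894, which is 330 bases long. The stretch below is shown because it limits what the Mpc1 count can say: these 261 coding bases are identical in Mpc1 and Mpc1-ps. They are spliced from 5 exons within chr17:8288737-8297162, are taken from the GENCODE M21 transcript and are written 5′ to 3′ with the stop codon in capitals.
Mpc1: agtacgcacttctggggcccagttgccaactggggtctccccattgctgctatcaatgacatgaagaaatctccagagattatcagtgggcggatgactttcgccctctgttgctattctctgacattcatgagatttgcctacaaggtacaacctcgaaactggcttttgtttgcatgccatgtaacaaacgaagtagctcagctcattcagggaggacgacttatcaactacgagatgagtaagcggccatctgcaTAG
Over the 8 libraries Mpc1-ps was given 5916 counts, 42.1% of the 14052 counts of Mpc1, and how the counting placed reads that match both is not given in the sources used here. Mpc1 also shares 480 exon bases, 23.0% of its exon union, with 4930506C21Rik on the opposite strand, which had 498 counts, and without a stated strand setting reads of the 2 genes cannot be told apart.

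Mpc1 was measured at 28.5, 30.3, 29.01 and 25.4 CPM in HG libraries 1 to 4 and at 35.5, 33.4, 30.9 and 29.5 CPM in LG libraries 1 to 4. Each LG library was above the HG library of its number, but LG4 lay below HG2, so the groups overlapped. HG averaged 28.3 ± 2.09 CPM and LG 32.3 ± 2.68 CPM (SD, n = 4). The log2 fold change was 0.19 with SE 0.089 without the block, and 0.19 with SE 0.067 and an adjusted p of 0.247 in edgeR's fit with the block. Summed with its pseudogene copies, Mpc1 was at 40.0, 43.5, 42.4 and 36.2 CPM in HG and at 50.7, 46.7, 43.3 and 41.9 CPM in LG, again higher in 4 of 4 numbers. This sum had a log2 fold change of 0.17 with SE 0.068 (edgeR with the block, adjusted p = 0.306).

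Mpc2 (chr1:165460637-165481214) was at 39.1, 36.2, 36.9 and 35.8 CPM in HG and at 45.4, 37.6, 37.9 and 37.1 CPM in LG. LG1 stood above the other 7 libraries, which lay within 4 CPM of each other, and the log2 fold change was 0.09 with SE 0.063 (edgeR with the block, adjusted p = 0.568). The ratio of Mpc1 to Mpc2 in TPM was 2.70 ± 0.206 in HG and 2.90 ± 0.168 in LG and was higher in LG in 4 of 4 numbers, given here as a description with no test.

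The pyruvate dehydrogenase complex showed no common direction. It joins the E1 subunits (Pdha1, Pdhb), the E2 acetyltransferase (Dlat), the E3 lipoamide dehydrogenase (Dld) and the E3-binding protein (Pdhx). Pdhb (chr14:8165996-8173025) was at 102, 104, 122 and 117 CPM in HG and at 114, 107, 125 and 119 CPM in LG. The difference was positive in each number, and in both groups libraries 3 and 4 lay above libraries 1 and 2. Its log2 fold change was 0.07 with SE 0.056 (edgeR with the block, adjusted p = 0.621). Dlat was at 57.9, 54.5, 56.6 and 59.9 CPM in HG and at 54.4, 55.5, 54.3 and 58.3 CPM in LG, with a log2 fold change of -0.04 and a 95% interval from -0.17 to 0.09 in the fit with the block. Dld, whose product also serves the oxoglutarate and branched-chain complexes and the glycine cleavage system, was the member with the lowest fold change.

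Dld (chr12:31331277-31351453) was at 117, 108, 101 and 98.2 CPM in HG and at 92.9, 102, 91.1 and 97.5 CPM in LG. The largest drop was in number 1 and the smallest in number 4, where the 2 libraries were almost equal. The means were 106 ± 8.55 CPM in HG and 95.8 ± 4.77 CPM in LG, and the log2 fold change was -0.14 with SE 0.064 (edgeR with the block, adjusted p = 0.361). It was -0.04 once a trend on GC content and length had been removed from each library (adjusted p = 0.822 by edgeR with the block), and it was -0.08 in the fit with the block when number 1 was left out. Pdha1 and Pdhx had 95% intervals from -0.13 to 0.11 and from -0.15 to 0.10 in the fit with the block. Pdha1 shares 603 exon bases with Map3k15 on the opposite strand, and with Mpc1 it is among 7 members that share exon bases with a gene on that strand.

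**Figure D2:**
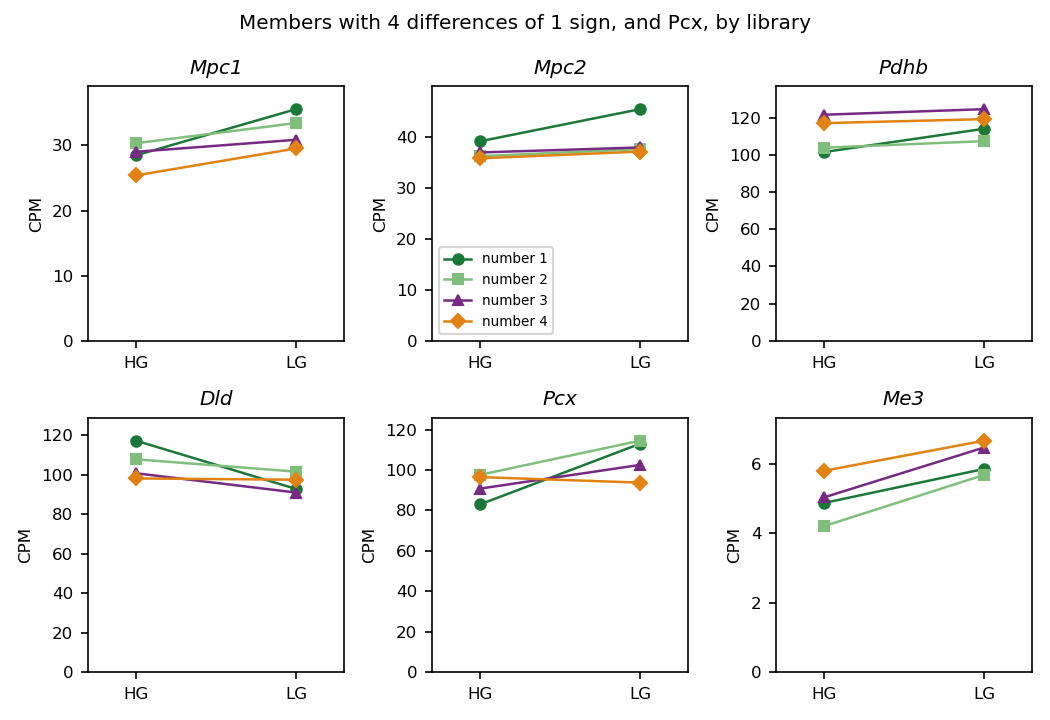
CPM by library for the 6 members with 4 same-numbered differences of 1 sign, with Glud1 replaced by Pcx because Glud1 appears with the library codes; the y axes start at 0, and lines join HG and LG libraries of 1 number. Mpc1, Mpc2, Pdhb and Me3 are higher in LG in 4 of 4 numbers, Dld is lower in 4 of 4, and Pcx is higher in 3 of 4.

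The citrate and isocitrate steps were represented by Cs, the aconitase and iron-responsive protein gene Aco1, the NADP-dependent isocitrate dehydrogenase genes Idh1 (cytosol) and Idh2 (mitochondria), and Idh3a, Idh3b and Idh3g, the subunits of the NAD-dependent enzyme of the cycle. In the fit with the block 6 of these 7 genes had a positive log2 fold change, with a median of 0.06, and none passed. In number 1 all 7 were higher in LG, and in number 4 all 7 were lower. Idh1 was at 299, 274, 254 and 238 CPM in HG and at 304, 274, 265 and 227 CPM in LG. Both groups thus fell from number 1 to number 4, and the ranges of the numbers did not overlap. Its log2 fold change was 0.004 in the fit with the block, with a 95% interval from -0.12 to 0.13. Idh3a was at 122, 116, 105 and 98.1 CPM in HG and at 127, 108, 99.2 and 94.8 CPM in LG, with a log2 fold change of -0.05 and an interval from -0.17 to 0.08.

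Between oxoglutarate and malate, the members were Ogdh and Dlst, the dehydrogenase and succinyltransferase of the oxoglutarate dehydrogenase complex, Suclg1, Suclg2 and Sucla2, the subunits of succinyl-CoA ligase, and the fumarase gene Fh1. Of these 6 genes 3 had a positive log2 fold change in the fit with the block, and the median was 0.02. Suclg2, which makes the enzyme GDP-specific where Sucla2 makes it ADP-specific, was at 70.2, 67.5, 53.9 and 52.6 CPM in HG and at 73.4, 66.2, 54.6 and 48.8 CPM in LG. Its log2 fold change was -0.01 with an interval from -0.14 to 0.11 in that fit.

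Malate dehydrogenases and aspartate aminotransferases (Got1 in the cytosol, Got2 in mitochondria) carry reducing equivalents across the mitochondrial membrane, and glutamate dehydrogenase (Glud1) joins glutamate to oxoglutarate. All 5 of these genes had a positive log2 fold change in the fit with the block, with a median of 0.11, and none passed. With the trend on GC content and length removed, 4 of the 5 were positive. Mdh1 was at 321, 313, 350 and 349 CPM in HG and at 343, 326, 385 and 319 CPM in LG, and Mdh2 was at 251, 274, 279 and 301 CPM in HG and at 311, 290, 319 and 275 CPM in LG. Both genes were higher in LG in numbers 1 to 3 and lower in number 4. The log2 fold change of Mdh2 was 0.11 with SE 0.073 (edgeR with the block, adjusted p = 0.538).

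Glud1 (chr14:34310727-34345265) was at 438, 453, 246 and 226 CPM in HG and at 538, 510, 270 and 231 CPM in LG. It was higher in LG in each number, by 0.30, 0.17, 0.13 and 0.03 in log2 CPM, while libraries 1 and 2 of each group were far above libraries 3 and 4. The log2 fold change was 0.18 with SE 0.354 without the block, and 0.16 with SE 0.063 with it (edgeR, adjusted p = 0.312). In the fit without the block, leaving out LG1, LG2, HG3 or HG4 gave values between -0.02 and 0.06, and leaving out HG1, HG2, LG3 or LG4 gave values between 0.32 and 0.37. In the fit with the block, leaving out 1 number gave values between 0.11 and 0.20.

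Of the genes for carboxylation and malic enzymes, the pyruvate carboxylase gene Pcx and Me3 had the highest fold changes among the 29 in the fits without and with the block. With the GC and length trend removed, Me3 was still the highest at 0.40, but Mpc1 (0.22) and others were above Pcx. Pcx (chr19:4510472-4621752) was at 82.996, 97.6, 90.8 and 96.5 CPM in HG and at 113, 114, 103 and 93.8 CPM in LG. LG1, LG2 and LG3 were above all 4 HG libraries, and LG4 was below HG2 and HG4. The log2 fold change was 0.20 with SE 0.075 (edgeR with the block, adjusted p = 0.275), and it was 0.12 with the trend on GC content and length removed (adjusted p = 0.417).

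Me3 (chr7:89632392-89854359) was at 4.88, 4.21, 5.04 and 5.80 CPM in HG and at 5.86, 5.68, 6.47 and 6.67 CPM in LG. The LG libraries were higher in 4 of 4 numbers, and only LG2 lay below an HG library, HG4. The means were 4.98 ± 0.654 CPM in HG and 6.17 ± 0.475 CPM in LG, and the log2 fold change was 0.31 with SE 0.103 (edgeR with the block, adjusted p = 0.224). Me1, the cytosolic malic enzyme gene, which yields NADPH, was at 118, 120, 78.6 and 84.0 CPM in HG and at 124, 118, 82.9 and 78.2 CPM in LG. Its log2 fold change was 0.004, with an interval from -0.12 to 0.13 in the fit with the block. Me2 was at 38.7, 36.6, 35.5 and 37.6 CPM in HG and at 38.3, 35.9, 38.8 and 35.4 CPM in LG, and its interval ran from -0.14 to 0.14.

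The direction of the group depended on the number of the library pair. In number 1, 23 of 29 members were higher in LG, with a median difference of 0.16 in log2 CPM, where 50.0% of all genes were higher. In number 2, 18 were higher with a median of 0.04 (51.5% of genes), and in number 3, 25 were higher with a median of 0.09 (50.7%). In number 4, 6 were higher and 23 lower, with a median of -0.07 (48.2% of genes higher). Numbers 1 to 3 thus showed a majority of members higher in LG and number 4 a majority lower. Numbers 3 and 4 each have a code of their own.

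The 12 members that were higher in numbers 1 to 3 and lower in number 4 were Cs, Aco1, Idh2, Idh3b, Idh3g, Ogdh, Dlst, Suclg1, Mdh1, Mdh2, Got2 and Pcx. This pattern held for 13.1% of all genes. It was described after the values had been seen, and whether number 4 differed from the others was not tested, since it is 1 library of each group. LG4 held the lowest value of the 8 libraries for 11 members, while LG1 held the highest for 11 and LG3 the highest for 10. HG1 held the lowest value for 9 members. With the trend on GC content and length removed per library, the counts of members higher in LG were 27, 23, 27 and 5 in numbers 1 to 4, where 56.1%, 55.0%, 56.3% and 45.3% of all genes were higher.

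**Figure D3:**
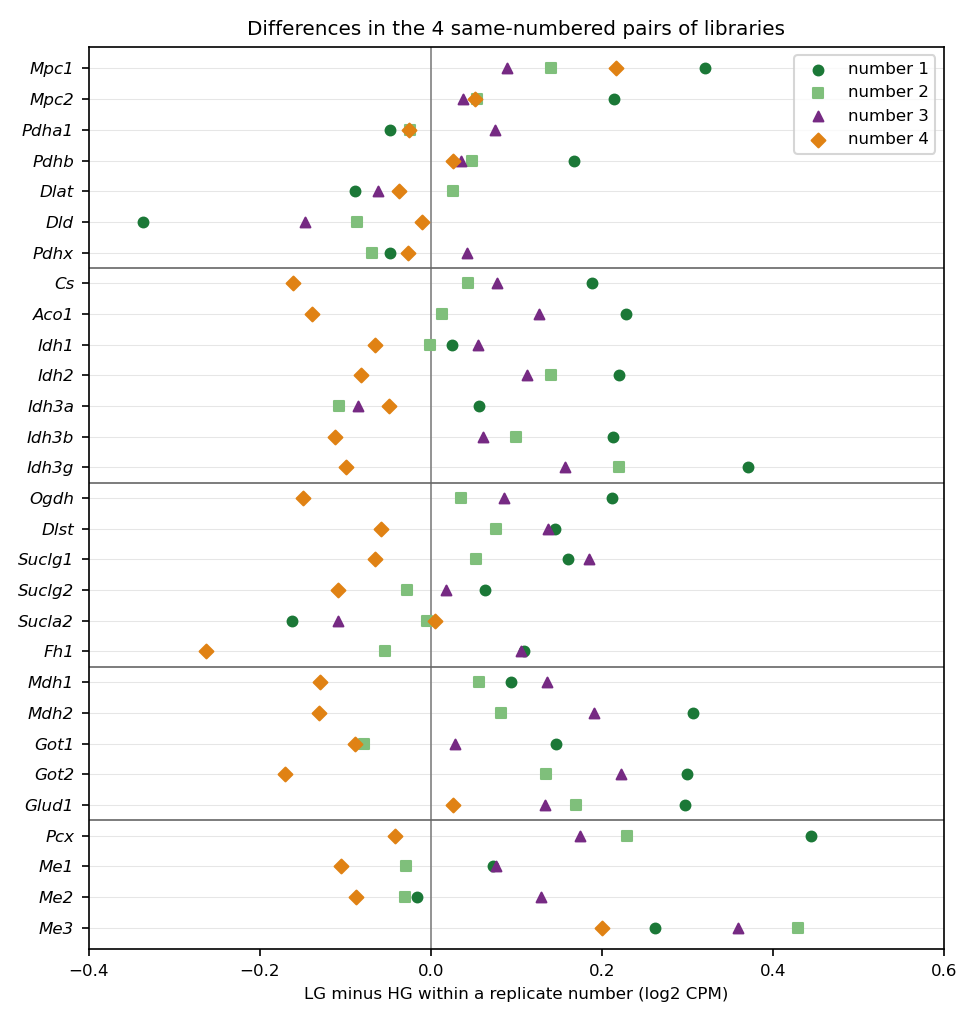
Difference between the LG and the HG library of the same number in log2 CPM (x axis) for each of the 29 members, ordered by role, with 1 symbol for each number. The diamonds of number 4 lie left of 0 for 23 members, whereas the circles of number 1 lie right of 0 for 23.

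Leaving out number 4 raised the median log2 fold change of the members to 0.10 in the fit with the block. In that fit 24 members had a positive value, against 50.8% of genes. An unadjusted p under 0.05 was found for 12 of the 29 members, against 21.9% of genes. Such a p with a higher value in LG was found for 11 of the 29, against 10.9% of all genes. The number left out is the one in which 23 of 29 members were lower in LG. The smallest adjusted p of a member by edgeR was 0.0674. Leaving out number 1 gave a median of 0.009 and 17 positive values. The number of members that passed was 0 in each of these fits.

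Between libraries of different codes some members passed the test. Code 23-1105-C (4 libraries) was compared with the mean of the 2 others (4 libraries) in a fit with the glucose group as a term. This compares these sets of libraries, since the 4 on the first side share 1 code and may share a source. By edgeR with Benjamini-Hochberg adjustment, 5 of 29 members passed, all higher in 23-1105-C, against 3784 of 18905 genes (20.0%). The share of members was therefore near that of all genes. The 5 were Glud1, Me1, Suclg2, Idh3a and Idh1, and the median log2 difference over the 29 was 0.04, against -0.02 over all genes, and it was -0.06 against -0.08 with the GC and length trend removed.

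Glud1 averaged 485 ± 47.1 CPM in 23-1105-C and 243 ± 19.6 CPM in the others (SD, n = 4), a 1.99-fold difference (log2 0.99, SE 0.065, edgeR adjusted p = 2.13e-06). Me1 averaged 120 ± 2.96 CPM against 80.9 ± 2.97 CPM, 1.48-fold (log2 0.57, SE 0.060, edgeR adjusted p = 8.16e-05). Suclg2 averaged 69.3 ± 3.19 CPM against 52.5 ± 2.60 CPM, 1.32-fold (log2 0.40, SE 0.064, edgeR adjusted p = 0.00154). For these 3 genes the libraries of 23-1105-C did not overlap with the others, and their calls remained when any 1 library was left out and with the other scaling, filter and offsets tried. Pseudogene copies of at least 95% identity were given 9.03% as many counts as Me1, 4.20% as many as Suclg2 and 0.408% as many as Glud1, so the Me1 and Suclg2 values carry an uncertainty of that kind.

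Idh3a averaged 118 ± 8.34 CPM in 23-1105-C and 99.3 ± 4.32 CPM in the others, 1.19-fold (log2 0.25, edgeR adjusted p = 0.0235). Idh1 averaged 288 ± 16.3 CPM against 246 ± 16.5 CPM, 1.17-fold (log2 0.23, edgeR adjusted p = 0.0324). These 2 calls were less firm: each was lost when HG3, HG4, LG1, LG3 or LG4 was left out, and with the offsets for GC content and length, where Idh3a had a log2 difference of 0.17 and Idh1 of 0.10. With those offsets 8 members passed, Glud1, Me1 and Suclg2 higher and Pdhb, Idh2, Mdh1, Got2 and Me3 lower in 23-1105-C, against 27.0% of genes. In all, 9 members had libraries of 23-1105-C that did not overlap with the others, against 23.1% of genes.

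**Figure D4:**
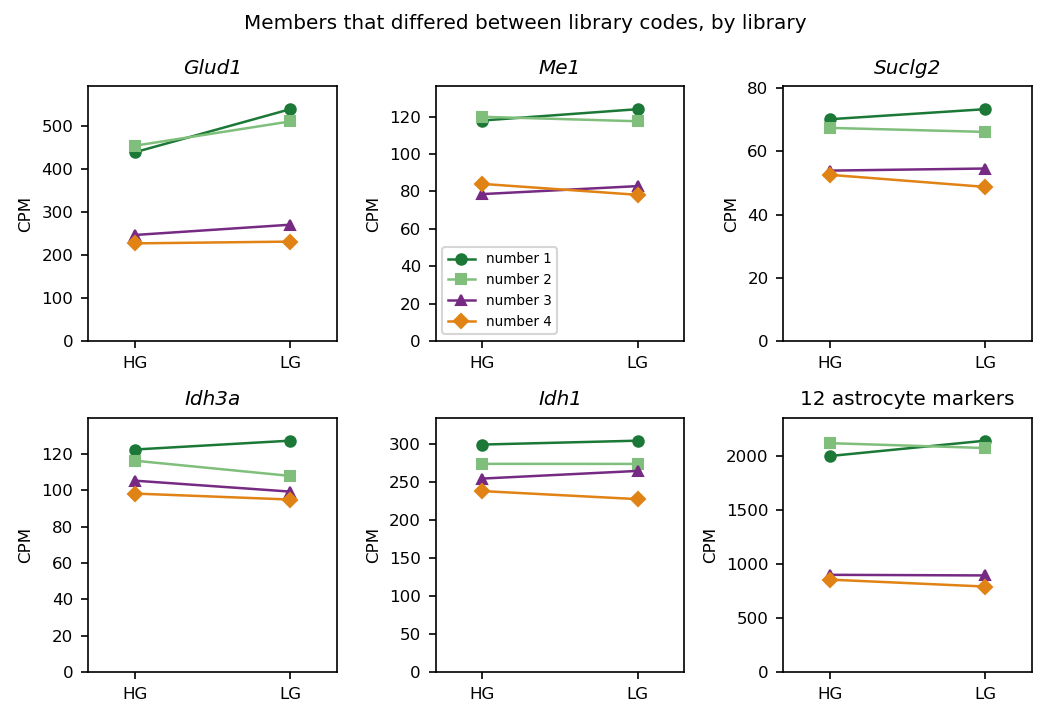
CPM by library for the 5 members that differed between library codes and for the sum of 12 astrocyte markers; y axes start at 0, and lines join HG and LG libraries of 1 number. Numbers 1 and 2 (code 23-1105-C) lie above numbers 3 and 4 in each panel, most widely for Glud1 among the genes.

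The same sets of libraries differed in the markers of another cell type. Of the 12 astrocyte markers 10 were higher in 23-1105-C and S100b was lower, by edgeR's adjusted p, with log2 differences of 4.41 for Gfap, 4.65 for Aqp4 and 4.86 for Gja1. The summed progenitor markers were lower in it, between 8844 and 10177 CPM against 11285 to 12764 CPM. Within a number the astrocyte sum was higher in LG in 1 of 4. By gene, the median log2 fold change of the 12 astrocyte markers in LG against HG was 0.12 in the fit with the block. By edgeR's adjusted p in that fit 0 of the 12 passed, against 0.418% of all genes. In bulk RNA, fewer cells of a type and less RNA per cell cannot be told apart, and the part of astrocyte RNA in the Glud1, Me1, Suclg2, Idh3a and Idh1 differences was not tested.

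Ratios of partner genes within a library follow. The Me1 to Me2 ratio in TPM was 6.05 ± 0.205 in 23-1105-C and 4.14 ± 0.0805 in the others, while it was 5.08 ± 1.04 in HG and 5.12 ± 1.19 in LG. The Idh1 to Idh2 ratio, cytosolic to mitochondrial, was 3.41 ± 0.376 against 2.59 ± 0.170 by code. The Sucla2 to Suclg2 ratio, ADP-specific to GDP-specific, was 1.19 ± 0.0771 against 1.44 ± 0.0909. These ratios were described with no test. The Mdh1 to Mdh2 and Got1 to Got2 ratios, both cytosolic to mitochondrial, were each higher in LG in 1 of 4 numbers.

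The rest of the pathway was read from a list of 38 symbols that covers succinate dehydrogenase and its assembly factors, lipoate attachment, the carriers of cycle intermediates, and the entry of glutamine, alanine and propionate. Of these 36 were found and 33 were tested. In LG against HG, 0 of the 33 passed without the block, with it, or with the block and offsets, and 23 had a positive log2 fold change with the block, with a median of 0.09. In numbers 1 to 4, 24, 24, 20 and 13 of the 33 were higher in LG.

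Ogdhl, which encodes an isoform of oxoglutarate dehydrogenase, was at 49.5, 53.0, 59.4 and 64.7 CPM in HG and at 61.3, 67.6, 71.6 and 68.1 CPM in LG, higher in 4 of 4 numbers. Its log2 fold change was 0.25 with SE 0.064 and an adjusted p of 0.130 by edgeR with the block, and it passed by DESeq2 with the block (adjusted p = 0.0259) and in edgeR without number 4. The glutamate carrier gene Slc25a18 was at 99.6, 103, 50.8 and 53.3 CPM in HG and at 103, 82.6, 35.0 and 32.9 CPM in LG. It was lower in LG in 3 of 4 numbers, with a log2 fold change of -0.37 and SE 0.104 (edgeR with the block, adjusted p = 0.174), and it passed by DESeq2 with the block (adjusted p = 0.0160). Pck2, the mitochondrial phosphoenolpyruvate carboxykinase gene, was at 12.04, 15.0, 15.2 and 16.7 CPM in HG and at 15.0, 16.2, 17.9 and 18.8 CPM in LG, with a log2 fold change of 0.21 (edgeR with the block, adjusted p = 0.252).

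Glul, the glutamine synthetase gene, had the highest level per length among these genes, at 434 TPM. It was at 615, 654, 227 and 240 CPM in HG and at 702, 631, 267 and 228 CPM in LG, which follows the codes as Glud1 does. Between codes Glul differed by 1.43 and Slc25a18 by 1.204 on the log2 scale (edgeR adjusted p = 3.55e-07 and 8.40e-05), and 5 of the 33 genes passed, 3 of them higher in 23-1105-C, where 20.0% of all genes passed.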

How the data were processed

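The values deposited by the authors are whole-number counts of each Ensembl gene in 8 libraries, not normalised. Libraries were made from 100 ng of RNA with an mRNA kit and read as 150 bp pairs, per the labels' protocols. Per the submitters' processing notes, the tools were CASAVA 1.8.2, STAR, featureCounts and DESeq2 with the build mm10, without a statement of what each did. The sources used here do not state the annotation, the strandedness of counting or the handling of multiply mapped reads. Of the gene IDs, 52073 had a symbol in GENCODE M21 and 4907 had none.

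The counts were scaled by TMM, filtered by filterByExpr and compared with edgeR 4.0.16 (quasi-likelihood, robust) in R 4.3.3. CPM use these factors, log2 CPM a prior count of 2, and TPM the union of exons. Each SE is the absolute log2 fold change divided by the root of F. The fit without a block is the main one. After subtraction of group means, HG and LG libraries of 1 number had a correlation across genes (not independent replicates) of 0.448 to 0.625. Libraries of different numbers had a correlation of 0.419 at most. Libraries of 1 number were therefore treated as pairs in the fit with the block, a decision made before the calls of the fits were looked at. The main fit ignores this pairing. Offsets remove the dependence of log2 levels on GC content and exon length, fitted as a smooth curve per library with mgcv 1.9.3. Across 18424 genes the log2 fold change correlated with GC content at a Spearman rho of 0.352 without them and of 0.002 with them and the block. Alternatives were the blocks, the offsets, other scaling, no filter, DESeq2 1.42.0, libraries summed per code, left-out libraries or numbers and, added after the values were seen, summed pseudogene copies (blastn 2.17.0, at least 95% identity over 200 bases) and pair differences with the trend removed.

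Values in every library are given for members whose 4 same-numbered differences had 1 sign, the 5 with the smallest p with the block, the 4 highest and 4 lowest per length, and the 4 that differed most between codes. The same was done for the 3 other pathway genes with the smallest p and the 2 most abundant, of which 1 is not reported here. Members and lists were chosen with earlier results of these data known. LG against HG was also simulated with 18541 genes. The fit without the block recovered 26% of genes changed 1.4-fold and 81% of those changed 2-fold. The fit with it recovered 92% and 99%, with 18 false calls among 209. The simulated counts kept the differences between numbers and used the spread estimated with the block, so a gain from the block was built in. Changed genes were drawn from those above a mean of 5 CPM.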

Additional observations from a re-analysis of the deposited data

Results flagged for a closer look

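Among 68 groups of 4 libraries, 1 held a library far from the other 3. Mpc2 was at 5.51 log2 CPM in LG1, against 5.21 to 5.25 in the other LG libraries, a gap of 0.893 of the group's range, which is above Dixon's 95% limit for 4 libraries. Chance marks about 1 in 20 such groups. LG1 also held the highest value of the 8 libraries for 11 of the 29 members. Without LG1, Mpc2 had a log2 fold change of 0.02 and 16 of 29 members had a positive value.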

How the results depend on the processing

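The count of members that passed in LG against HG was 0 in the 23 alternatives run. Their median log2 fold change lay between 0.009 and 0.10, and between 16 and 25 of the 29 were positive. The fit with the replicate block changed no call of a member, but raised the genes that passed from 0 to 79, and a block on the library code gave 1. The block with the GC and length offsets gave 129, DESeq2 gave 4 and 474 with the block, libraries summed per code gave 17, and summed pseudogene copies gave 79 with the block. Leaving out 1 library or 1 number gave from 0 to 148, the highest without number 4. Members near 0 changed sign. Suclg2 was at 0.045 with the block and offsets and at 0.055 with the offsets alone. Me2 was at 0.058 and 0.061 in these fits, at 0.0059 with other size factors, at 0.0057 and 0.0056 by DESeq2 without and with the block, at 0.0038 without a filter and at 0.010 with libraries summed. Leaving out 1 library or number gave log2 fold changes from -0.0615 to 0.0762 for Idh1, -0.134 to 0.0128 for Idh3a, -0.111 to 0.0845 for Suclg2, -0.0180 to 0.0951 for Mdh1, -0.0172 to 0.371 for Glud1, -0.108 to 0.124 for Me1, -0.0441 to 0.0273 for Me2 and -0.21 to 0.36 for Glul. Without number 1 the fit with the block gave -0.08 for Dld, 0.05 for Mdh2, 0.04 for Pdhb, 0.05 for Mpc2 and 0.12 for Pcx. Between codes, 8 members passed with the offsets, and 3 to 5 members and 2041 to 3233 genes when 1 library was left out, with the fewest genes without LG3. The causes of these changes were not tested. Effects of 1.4-fold in 1 gene were mostly missed without the block in simulated counts, so that fit could miss a difference of that size in a member.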

Other observations

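Succinate dehydrogenase oxidises succinate within the cycle and feeds the respiratory chain, and its 4 subunit genes were read as a group after the values had been seen. Sdha was at 280, 291, 286 and 300 CPM in HG and at 297, 292, 303 and 276 CPM in LG. Sdhb was at 130, 118, 127 and 128 CPM in HG and at 158, 126, 155 and 119 CPM in LG. Sdhc was at 141, 156, 166 and 173 CPM in HG and at 181, 173, 187 and 161 CPM in LG. Sdhd was at 78.2, 79.9, 94.1 and 86.9 CPM in HG and at 101, 81.0, 90.9 and 83.1 CPM in LG. Sdha, Sdhb and Sdhc were higher in LG in numbers 1 to 3 and lower in number 4, a pattern found in 13.1% of all genes, and Sdhd was also lower in number 3. The log2 fold changes of Sdha, Sdhb, Sdhc and Sdhd were 0.01, 0.14, 0.14 and 0.07, and none passed in edgeR's fit with the block, with adjusted p-values from 0.411 to 0.946.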
